A study of Mus musculus with 12 samples.

Results

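Type 2 conventional dendritic cells (cDC2) of mouse white fat were described here, as a population of 601 cells among 126095 kept cells (0.477%) in 12 single-cell RNA-seq libraries. Members were chosen by their own unique molecular identifier (UMI) counts. A kept cell had 700 to 22000 UMIs, 200 to 6000 genes and under 25% mitochondrial UMIs. A member carried at least 2 UMIs of Flt3 and Cd209a together and at least 5 of H2-Ab1. It carried none of Xcr1, Clec9a, Ccr7, Siglech, Lyve1, Cd163, Trem2, Cd3d, Cd3e or Cd3g. These 13 genes therefore describe the choice and are not findings. The epididymal depot (eWAT) gave 357 members and the inguinal depot (iWAT) 244.

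Conventional dendritic cells take up antigen in tissues, load it on MHC class II molecules and carry it to lymph nodes, where they prime T cells. They arise from a Flt3-dependent precursor and fall into a type 1 branch (cDC1), marked by Xcr1 and Clec9a and dependent on Irf8, and a type 2 branch, marked by Sirpa, Cd209a and Clec10a and associated with Irf4. In fat, cDC2 lie among far more numerous macrophages, which share many of their surface lectins and MHC class II genes. Rosiglitazone is an agonist of PPARγ, the nuclear receptor that drives adipocyte formation and lipid-handling genes, and PPARγ is also active in myeloid cells.

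All mice were males of 12 weeks. The WT-Veh group was C57BL/6J given vehicle (methylcellulose in culture medium), ob/ob-Veh was Lepob/Lepob, the leptin-deficient obese genotype, given vehicle, and ob/ob-Rosi was Lepob/Lepob given 30 mg/kg rosiglitazone by oral gavage for 3 days. Each group gave 2 libraries per depot, labelled as biological replicates, of the stromal vascular fraction, the collagenase-released cells left after floating adipocytes are removed. No lean mice given rosiglitazone were analysed here, so a change between ob/ob-Rosi and ob/ob-Veh is a change in the obese genotype. Values below are given for replicate 1 and then replicate 2 of each group. A level is in CPM, the UMIs of a gene over all UMIs of the members of that library on the usual CPM scale, and compares 1 gene between libraries. A change is the log2 fold change ± SE of an edgeR quasi-likelihood fit to those sums, called where p after Benjamini-Hochberg adjustment was no more than 0.05 and the change at least 1.1-fold, and "rose" and "fell" are used only of called genes.

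Libraries held 20132553 to 92475986 UMIs in all, and the members of a library 20060 to 921550. The iWAT WT-Veh replicate 1 library held only 9 members with 20060 UMIs and fell under the minimum of 20 members for a fit. The iWAT WT-Veh arm of each gene test is therefore 1 library, replicate 2, for which the spread was borrowed from the ob/ob groups. The left-out library resembled the ob/ob-Veh libraries in many genes, so its level is printed beside most iWAT genes described and the calls were repeated with it. A low level in it rests on very few UMIs, in some genes no more than the floor of 3 UMIs used below. Likeness in such genes is uncertain. Median UMIs per member were lowest in iWAT ob/ob-Veh, at 1660 and 1510, and between 2086 and 7439 in the other libraries. Median mitochondrial shares were highest in iWAT WT-Veh replicate 1 (11.1%) and iWAT ob/ob-Veh (10.2% and 9.57%), against 1.70% to 5.88% elsewhere. Lep itself cannot check the genotype labels, since the ob mutation leaves a transcript, and members held 1 Lep UMI in all. Most barcodes, 338 (3.29% of the smaller library), were shared by eWAT ob/ob-Rosi replicate 2 and iWAT WT-Veh replicate 2, the only lean library of the iWAT fits. None of them was a member of both. Next came eWAT ob/ob-Veh replicate 1 and iWAT ob/ob-Rosi replicate 1 with 122 (1.23%), among them the 1 shared member barcode.

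Of the 4 markers given for these cells, Flt3 and Cd209a were used by the rule, H2-DMb2 set members apart from macrophages on average and Clec10a did not. H2-DMb2, a chain of the class II editing molecule H2-DM, averaged 105 CPM in eWAT cDC2 and 117 CPM in iWAT cDC2, against 68.2 and 50.3 CPM in cDC1 and 7.25 and 6.96 CPM in MHC class II macrophages (cells with at least 10 C1q UMIs and without the dendritic cell genes). Mgl2, a galactose-binding lectin, averaged 779 and 811 CPM in cDC2, 17.9 and 4.81 CPM in cDC1, and 290 and 699 CPM in macrophages. Tnip3, an inhibitor of NF-κB signalling, averaged 942 and 1005 CPM in cDC2, 145 and 166 CPM in cDC1, and 123 and 110 CPM in macrophages. On average all 3 were highest in cDC2 in both depots, but for Mgl2 this varied by library: in eWAT macrophages it was 69.1 to 81.0 CPM in WT-Veh and ob/ob-Rosi and 627 and 805 CPM in ob/ob-Veh, next to 803 and 811 CPM in ob/ob-Veh cDC2, and in iWAT ob/ob-Veh replicate 2 it was 1338 CPM in macrophages and 956 CPM in cDC2. Clec10a averaged 537 CPM in eWAT cDC2 against 548 CPM in macrophages, and 897 CPM in iWAT cDC2 against 1368 CPM. It was 46.1 and 29.8 CPM in cDC1. Sirpa, Irf4, Itgam and Zbtb46, also cDC2 markers, are left out of this comparison. Itgax, another, was higher in cDC2 in eWAT ob/ob-Veh (136 and 154 CPM against 21.5 and 26.6 CPM in macrophages). In eWAT ob/ob-Rosi it was higher in macrophages (132 and 85.9 CPM against 44.5 and 76.2 CPM in cDC2). Irf8, the cDC1 transcription factor, averaged 91.9 and 107 CPM in cDC2 against 1140 and 1311 CPM in cDC1. The invariant chain Cd74 averaged 28525 and 24994 CPM in cDC2 against 9868 and 10765 CPM in macrophages, and C1qa, a complement gene of tissue macrophages, 226 and 447 CPM against 3516 and 3921 CPM. The inflammatory cytokine Il1b averaged 1943 and 1195 CPM in cDC2 against 215 and 136 CPM in macrophages. These averages describe cells that were chosen on related genes, the macrophages on C1q itself, and carry no test.

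Klk1 and Cox6a2 of plasmacytoid dendritic cells, Alas2 of the red cell lineage and Ms4a2 of mast cells were at 0 in members of every library. Other genes of those lists were detected in some library. In each depot 6 of 8 plasmacytoid and 4 of 5 red blood cell markers had a UMI. So did 7 of 8 neutrophil and mast cell markers in eWAT and 6 of 8 in iWAT. Some members lay close to the limits of the rule: 213 of the 601 had exactly 2 Flt3 and Cd209a UMIs, and 569 further cells missed only by having 1. In eWAT the cells just inside and just outside this limit had 104 and 98.0 CPM of H2-DMb2, 433 and 317 CPM of Mgl2, and 327 and 589 CPM of C1qa. In iWAT they had 106 and 70.6 CPM of H2-DMb2, 569 and 579 CPM of Mgl2, and 314 and 854 CPM of C1qa. The cells outside thus held more C1qa in both depots. Sirpa was 146 CPM inside and 193 CPM outside in eWAT, and 192 and 186 CPM in iWAT. Itgax was 90.3 and 101 CPM in eWAT, and 98.4 and 61.0 CPM in iWAT. Irf4 and Zbtb46 were higher inside in both depots. The class II limit kept out 79 cells, 27 members carried 10 or more C1q UMIs, and a doublet caller marked 14 members. Where its automatic threshold marked almost no cells, the highest scores at an expected rate were marked instead. This was so in both iWAT ob/ob-Rosi libraries, eWAT WT-Veh replicate 2 and iWAT WT-Veh replicate 1. Of iWAT ob/ob-Rosi replicate 1 members 12.1% were marked.

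The share of cDC2 among kept cells was highest in ob/ob-Veh in both depots. In eWAT it was 1.34% and 0.993% in ob/ob-Veh, 0.292% and 0.433% in WT-Veh, and 0.487% and 0.397% in ob/ob-Rosi. Both ob/ob-Veh mice lay above all other eWAT libraries, with a mean of 1.17% ± 0.247 (SD, n = 2) against 0.362% ± 0.0993 in WT-Veh (3.22-fold) and 0.442% ± 0.0637 in ob/ob-Rosi (2.64-fold). The 95% exact binomial intervals of the ob/ob-Veh shares, 1.12% to 1.60% and 0.785% to 1.24%, did not meet those of any other eWAT library, the closest upper bound being 0.650%. These intervals cover counting error only. In iWAT it was 0.819% and 0.694% in ob/ob-Veh, 0.0527% and 0.518% in WT-Veh, and 0.341% and 0.240% in ob/ob-Rosi, so that ob/ob-Veh was again highest but WT-Veh replicates lay far apart. A two-sided exact permutation test gave p = 0.333 for ob/ob-Veh against WT-Veh and for ob/ob-Rosi against ob/ob-Veh in each depot, the smallest p that 2 libraries against 2 allow, so no difference in share could reach 0.05. With cells of at least 2000 UMIs thinned to 2000 and shallower cells left out, eWAT ob/ob-Veh remained apart (1.24% and 1.29%, against 0.331% to 0.426% elsewhere). So treated, iWAT ob/ob-Veh (0.417% and 0.498%) stayed above ob/ob-Rosi (0.352% and 0.174%) but overlapped WT-Veh (0.222% and 0.477%). These iWAT shares rest on 15 and 17 members in ob/ob-Veh, 26 and 22 in ob/ob-Rosi, and 6 and 39 in WT-Veh.

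**Figure D1:**
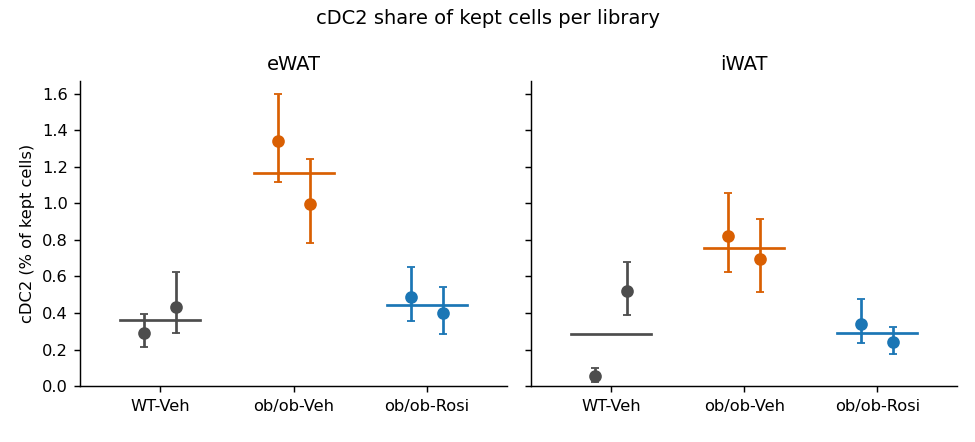
Share of cDC2 among kept cells (%) in each of the 12 libraries, by depot and group, with 95% exact binomial intervals and a line at each group mean. Both eWAT ob/ob-Veh libraries (1.34% and 0.993%) lie above every other eWAT library, and the iWAT WT-Veh libraries (0.0527% and 0.518%) lie far apart.

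Set against immune cells alone, the order was the same. Among cells with a Ptprc (CD45) UMI, cDC2 made up 3.72% and 2.68% in eWAT ob/ob-Veh, 0.982% and 0.893% in WT-Veh, and 1.08% and 0.874% in ob/ob-Rosi. In iWAT they made up 2.51% and 2.65% in ob/ob-Veh, 0.103% and 1.27% in WT-Veh, and 0.798% and 0.788% in ob/ob-Rosi. Macrophages ran the other way in eWAT, at 7.46% and 9.56% of kept cells in ob/ob-Veh against 16.9% and 19.3% in WT-Veh and 18.1% and 27.6% in ob/ob-Rosi. Shares are relative, so more cDC2 and fewer of the other cells cannot be told apart.

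The balance of the dendritic branches differed between depots. In eWAT there were 1.66 and 1.60 cDC2 per cDC1 in ob/ob-Veh, 1.26 and 1.17 in WT-Veh, and 1.35 and 1.43 in ob/ob-Rosi, and cDC1 were themselves most frequent in ob/ob-Veh (0.807% and 0.619% of kept cells, against 0.231% to 0.371% elsewhere). In iWAT there were 5.90 and 2.63 cDC2 per cDC1 in ob/ob-Veh, 0.900 and 0.864 in WT-Veh, and 0.75 and 0.70 in ob/ob-Rosi. There cDC1 were least frequent in ob/ob-Veh and WT-Veh replicate 1 (0.139%, 0.264% and 0.0586%) and were 0.343% to 0.600% in the rest. The high iWAT ratios rest on 10 and 19 cDC1 and were not tested.

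In eWAT cDC2, ob/ob-Veh differed from WT-Veh in 11 of 2628 genes tested (0.419%), 6 higher (0.228%) and 5 lower (0.19%). Those that rose were Il6, Cxcl10, Lsmem1, Fcrls, Cd209d and Neat1, and those that fell were Apoe, Cd63, Fabp5, Gpnmb and Ccl8. With rosiglitazone, 37 genes differed from ob/ob-Veh (1.41%), 25 higher (0.951%) and 12 lower (0.457%). This contrast uses the same ob/ob-Veh libraries as the first, so opposite signs in both are not independent and values are set side by side. These fits did not pair libraries by replicate number. With a replicate block the eWAT counts were 92 (45 higher, 47 lower) and 117 (53 higher, 64 lower), which include all 11 and all 37, and same-numbered libraries deviated together across genes with correlations of 0.116 to 0.295. The labels do not say what a shared number marks.

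Il6, the acute-phase cytokine, was 175 and 261 CPM in ob/ob-Veh cDC2, 10.5 and 8.83 CPM in WT-Veh, and 7.41 and 10.9 CPM in ob/ob-Rosi. Both ob/ob-Veh libraries stood more than an order of magnitude above the rest. It rose by 4.36 ± 0.65 in ob/ob-Veh against WT-Veh (adjusted p = 0.0072) and fell by 4.48 ± 0.57 in ob/ob-Rosi against ob/ob-Veh (adjusted p = 0.0028). Il6 lies at chr5:30013114-30019981 (mm10). It moved likewise in all other kept cells, which averaged 134 CPM in ob/ob-Veh, 9.70 CPM in WT-Veh and 8.26 CPM in ob/ob-Rosi, and the part of RNA from those cells in the result was not tested.

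Cxcl10, an interferon-induced chemokine that draws T cells, was 109 and 266 CPM in ob/ob-Veh, 10.5 and 0 CPM in WT-Veh, and 7.41 and 21.8 CPM in ob/ob-Rosi. It was higher in both ob/ob-Veh libraries than in any other, with changes of 5.07 ± 0.99 (adjusted p = 0.039) and −3.54 ± 0.69 (adjusted p = 0.021). The first call was lost without ob/ob-Veh replicate 2, without either ob/ob-Rosi library and without the members that carried 10 or more C1q UMIs.

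Lsmem1, a gene of a small membrane protein at chr12:40175493-40199490, was 182 and 227 CPM in ob/ob-Veh, 0 CPM in both WT-Veh libraries, and 0 and 10.9 CPM in ob/ob-Rosi. It was at least 13.6-fold higher in ob/ob-Veh than in WT-Veh, taking 3 UMIs over the group as the floor (adjusted p = 0.0072), and fell by 4.95 ± 0.68 with rosiglitazone (adjusted p = 0.004). Fcrls, an Fc receptor-like gene of myeloid cells, was 509 and 266 CPM in ob/ob-Veh, 21.0 and 0 CPM in WT-Veh, and 74.1 and 0 CPM in ob/ob-Rosi, with changes of 5.21 ± 1.01 (adjusted p = 0.039) and −3.58 ± 0.75 (adjusted p = 0.029). In both genes the ob/ob-Veh pair lay above the other libraries, which overlapped.

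Cd209d, a relative of the rule gene Cd209a, was 141 and 169 CPM in ob/ob-Veh, 0 and 8.83 CPM in WT-Veh and 29.7 and 59.9 CPM in ob/ob-Rosi, and rose by 4.82 ± 0.83 in ob/ob-Veh (adjusted p = 0.016). It was the only member of the cDC2 marker list to be called in this contrast, 1 of 10 tested, where 0.228% of all genes rose and 0.19% fell. The long nuclear RNA Neat1, a scaffold of paraspeckles, was 1850 and 2258 CPM in ob/ob-Veh, 494 CPM in both WT-Veh libraries and 675 and 485 CPM in ob/ob-Rosi, and rose by 1.98 ± 0.33 (adjusted p = 0.015). With members of at least 3 Flt3 and Cd209a UMIs, a choice that also took WT-Veh replicate 2 (18 such cells) under the minimum of 20, the ob/ob-Veh calls of Il6, Lsmem1, Fcrls, Cd209d, Neat1 and Cxcl10 were lost. Il1b, which cDC2 hold at high level, was not among the calls: it was 2038 and 2631 CPM in WT-Veh, 1113 and 1676 CPM in ob/ob-Veh, and 2320 and 1879 CPM in ob/ob-Rosi.

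Among the 5 genes that fell, Apoe, the lipid carrier apolipoprotein E (chr7:19696109-19699188), was 336 and 374 CPM in ob/ob-Veh against 2396 and 2172 CPM in WT-Veh and 2157 and 1051 CPM in ob/ob-Rosi. It fell by 2.76 ± 0.36 in ob/ob-Veh (adjusted p = 0.0038) and rose by 2.15 ± 0.35 with rosiglitazone (adjusted p = 0.0076). Cd63, a tetraspanin of late endosomes, was 39.1 and 29.3 CPM in ob/ob-Veh, 294 and 221 CPM in WT-Veh, and 393 and 436 CPM in ob/ob-Rosi, with changes of −2.93 ± 0.39 (adjusted p = 0.0038) and 3.54 ± 0.37 (adjusted p = 0.00047). In both genes the ob/ob-Veh pair lay below all other libraries.

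Fabp5, a fatty acid-binding protein, was 42.3 and 29.3 CPM in ob/ob-Veh, 189 and 150 CPM in WT-Veh, and 200 and 169 CPM in ob/ob-Rosi, with changes of −2.26 ± 0.40 (adjusted p = 0.021) and 2.29 ± 0.38 (adjusted p = 0.0076). Gpnmb, a glycoprotein of lipid-laden macrophages, was 10.9 and 0 CPM in ob/ob-Veh, 126 and 141 CPM in WT-Veh, and 89.0 and 147 CPM in ob/ob-Rosi, with changes of −4.24 ± 0.68 (adjusted p = 0.014) and 4.00 ± 0.65 (adjusted p = 0.0076). The chemokine Ccl8 was 1.09 and 4.89 CPM in ob/ob-Veh, 158 and 70.6 CPM in WT-Veh, and 126 and 43.6 CPM in ob/ob-Rosi, with changes of −5.43 ± 0.92 (adjusted p = 0.016) and 4.89 ± 0.91 (adjusted p = 0.015). Without ob/ob-Rosi replicate 2 the fall of Gpnmb and of Fabp5 lost its call, the latter also without WT-Veh replicate 1.

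RNA of macrophage marker genes moved with this group. The summed macrophage markers made up 4497 and 3911 CPM of member UMIs in WT-Veh, 1994 and 1769 CPM in ob/ob-Veh, and 4344 and 2641 CPM in ob/ob-Rosi. In all other kept cells they made up 31643 and 29746 CPM, 6514 and 10343 CPM, and 26921 and 23852 CPM. Apoe and Gpnmb belong to that list, and Apoe averaged 18987 CPM in the other WT-Veh cells against 3012 CPM in the other ob/ob-Veh cells. The rule asks for no raw UMI of Lyve1, Cd163 and Trem2, a limit that is stricter in deeper cells. Median UMIs per member were 7439 and 4891 in ob/ob-Veh, 2086 and 4400 in WT-Veh, and 2244 and 4220 in ob/ob-Rosi. The part of this limit and of macrophage RNA in these results was not tested. 

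Rosiglitazone changed further genes of eWAT cDC2. Ear2, an eosinophil-associated ribonuclease also made by monocyte-derived cells, was 641 and 455 CPM in ob/ob-Veh, 81.5 and 49.0 CPM in ob/ob-Rosi, and 242 and 159 CPM in WT-Veh. It fell by 3.11 ± 0.42 (adjusted p = 0.0029). Zfp36, which destabilises cytokine mRNAs, was 1985 and 1657 CPM in ob/ob-Veh, 460 and 354 CPM in ob/ob-Rosi, and 714 and 424 CPM in WT-Veh, and fell by 2.18 ± 0.35 (adjusted p = 0.0076). In both genes the ob/ob-Veh pair lay above all other libraries, and the ob/ob-Rosi pair lay below WT-Veh for Ear2 and overlapped it for Zfp36. The heat shock gene Hspa1b was 234 and 261 CPM in ob/ob-Veh against 14.8 and 49.0 CPM in ob/ob-Rosi and fell by 2.86 ± 0.48 (adjusted p = 0.0085), and Hif1a, the hypoxia-response factor, was 227 and 161 CPM against 59.3 and 38.1 CPM and fell by 2.04 ± 0.45 (adjusted p = 0.038).

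Sums over the immediate early and heat shock genes and over monocyte markers moved with these changes in eWAT. The 25 immediate early and heat shock genes, Zfp36 and Hspa1b included, summed to 20022 and 18327 CPM in ob/ob-Veh members, 12020 and 13800 CPM in WT-Veh, and 11498 and 12466 CPM in ob/ob-Rosi. All other cells showed the same, at 24408 and 20268 CPM in ob/ob-Veh against 10603 to 13966 CPM elsewhere. Of 22 tested in members 0 were called between the genotypes (all genes: 0.228% higher and 0.19% lower). Zfp36 and Hspa1b were the 2 that fell with rosiglitazone (all genes: 0.457%). The 11 monocyte markers, Ccr2 included, summed to 4161 and 3624 CPM in ob/ob-Veh members, 1555 and 1333 CPM in WT-Veh, and 2602 and 1340 CPM in ob/ob-Rosi, with 8 to 10 of them detected in each library. In all other cells they were 4152 and 3343 CPM in ob/ob-Veh and 1012 to 1686 CPM elsewhere, and 0 of 4 tested in members were called in either contrast. The part of these genes and cells in the results was not tested.

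Ccl17, a cDC2 chemokine that attracts CCR4-bearing T cells (chr8:94810453-94812036), was 749 and 53.8 CPM in ob/ob-Veh, 14.8 and 0 CPM in ob/ob-Rosi, and 137 and 194 CPM in WT-Veh. It fell by 5.93 ± 1.31 (adjusted p = 0.038), but the ob/ob-Veh libraries differed widely and the call was lost without ob/ob-Veh replicate 1, without either ob/ob-Rosi library, without doublets and with DESeq2. Igkc, an immunoglobulin light chain, was 2004 and 235 CPM in ob/ob-Veh against 44.5 and 0 CPM in ob/ob-Rosi. It fell by 5.83 ± 1.06 (adjusted p = 0.013), beside a summed B cell marker level, Igkc included, of 2698 CPM in ob/ob-Veh replicate 1.

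Genes of the extracellular matrix, which fibroblasts and their precursors make, were among the 25 that rose with rosiglitazone in eWAT. Col3a1, a fibrillar collagen, was 212 and 112 CPM in ob/ob-Veh, 1616 and 1214 CPM in ob/ob-Rosi, and 809 and 106 CPM in WT-Veh, and rose by 3.09 ± 0.62 (adjusted p = 0.025). The proteoglycan Bgn was 23.9 and 41.5 CPM against 385 and 294 CPM and rose by 3.41 ± 0.58 (adjusted p = 0.0089), and the actin-severing Gsn was 916 and 845 CPM against 2320 and 3110 CPM and rose by 1.61 ± 0.30 (adjusted p = 0.015). The ob/ob-Rosi pair was above the ob/ob-Veh pair in each. Stromal markers rose in 3 of 7 tested, beside 0.951% of all genes, and their sum in members was 2398 and 1644 CPM in ob/ob-Veh, 6739 and 7074 CPM in ob/ob-Rosi, and 4014 and 1351 CPM in WT-Veh. In all other cells the same sum ran the other way, at 30758 and 29015 CPM in ob/ob-Veh and 15106 and 14289 CPM in ob/ob-Rosi. The lysosomal protease Ctsl, which also trims the invariant chain, was 87.9 and 61.1 CPM in ob/ob-Veh and 282 and 583 CPM in ob/ob-Rosi and rose by 2.52 ± 0.42 (adjusted p = 0.0076). Most calls of this contrast were lost without ob/ob-Rosi replicate 2, which left 4, Cd63 among them. With DESeq2 the rosiglitazone calls of Fcrls, Hif1a, Col3a1 and Igkc were lost.

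**Figure D2:**
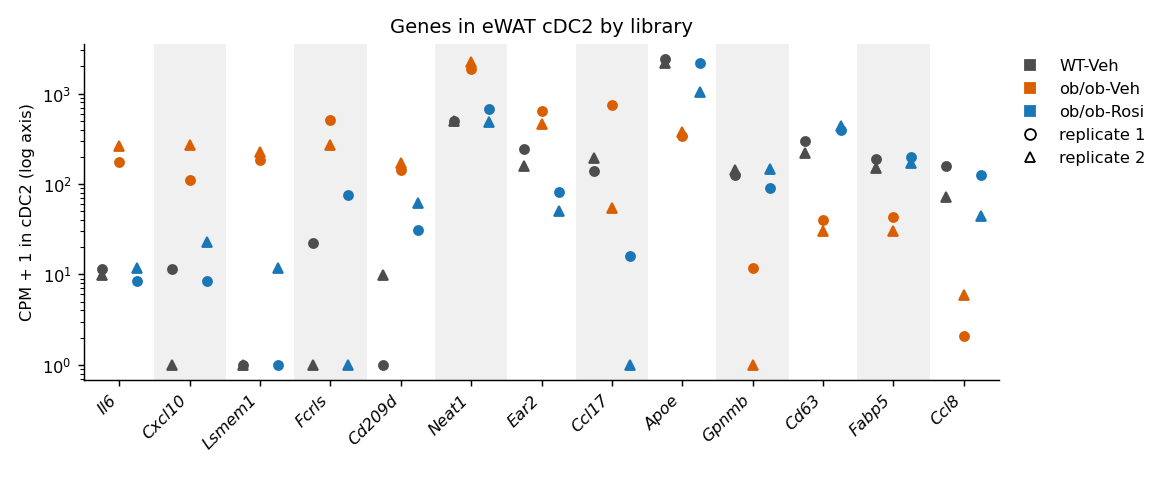
Levels of 13 genes in eWAT cDC2 (CPM + 1, log axis) in each of the 6 libraries, circles for replicate 1 and triangles for replicate 2, by group. Il6, Cxcl10, Lsmem1, Fcrls and Neat1 are highest in both ob/ob-Veh libraries, and Apoe, Cd63, Gpnmb, Fabp5 and Ccl8 lowest there.

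No gene of the class II and dendritic cell development lists was called between the genotypes in eWAT. Of 17 MHC class II pathway genes tested 0 were called (median change −0.49 against 0.02 over all genes), and of 18 dendritic cell development genes 0 were called. As only 0.419% of all genes were called, 0 in lists of this size does not show a lack of change. Changes were above 0 in 2 of the 17 and 13 of the 18. The members were chosen on H2-Ab1, a gene of the class II pathway. H2-DMb2 was 105 and 97.1 CPM in WT-Veh, 146 and 137 CPM in ob/ob-Veh, and 59.3 and 87.1 CPM in ob/ob-Rosi, with changes of 0.41 (adjusted p = 0.71) and −0.94 (adjusted p = 0.28). Clec10a was 641 and 768 CPM, 280 and 584 CPM, and 608 and 343 CPM in the same order, with changes of −0.79 (adjusted p = 0.45) and 0.11 (adjusted p = 0.93). The PPARγ target Fabp4 was 693 and 662 CPM, 482 and 200 CPM, and 348 and 599 CPM, and was not called in either contrast, with changes of −1.06 (adjusted p = 0.31) and 0.47 (adjusted p = 0.66). Pparg itself lay between 8.83 and 44.5 CPM in all eWAT libraries. Among the lists with calls, the lipid list had 0 higher and 2 lower of 14 in ob/ob-Veh and 2 higher and 0 lower with rosiglitazone, and the lysosome list 0 higher and 2 lower of 21 and then 2 higher and 0 lower, where 0.228% and 0.19% and then 0.951% and 0.457% of all genes were called. Each other list had at most 3 calls per contrast. Ribosomal proteins had 0 called of 81 (median −0.61) and mitochondrially encoded genes 0 of 12 (median 1.14) in ob/ob-Veh against WT-Veh.

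Between ob/ob-Rosi and WT-Veh, 0 of 2628 genes were called in eWAT by the edgeR quasi-likelihood test (0%), with 100 at an unadjusted p under 0.05, 1 called by DESeq2 and 3 with a replicate block. This count does not show that the groups were alike, since the spread of 2 libraries per group limits what can be called.

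In iWAT cDC2 the contrasts were broader and rest on 1 WT-Veh library. Of 4436 genes tested, 920 differed between ob/ob-Veh and WT-Veh (20.7%), 267 higher (6.02%) and 653 lower (14.7%), and 1084 between ob/ob-Rosi and ob/ob-Veh (24.4%), 739 higher (16.7%) and 345 lower (7.78%). With the WT-Veh library of 9 members added, an alternative chosen after seeing the data, the counts were 245 (101 higher, 144 lower) and 526 (372 higher, 154 lower, 524 of them shared with the first set). The results below are those of the fit without it. Among the genes named below, the genotype calls lost with that library included those of Spi1, Cd74, H2-DMa, Ccl2, Ccl24, Hk2, Hmgb2, mt-Nd3, AY036118 and Naaa. The rosiglitazone calls lost with it included those of Clec10a, Tnip3, Dennd4a, Itgam, Ccr2, Cd74, H2-DMa, Lgmn, H2-K1, B2m, Ccl2, Fabp4, C1qa and mt-Nd2. Cldn5 and Cxcl9 passed the filter on low counts only without it. Again both contrasts use the same ob/ob-Veh libraries. With a replicate block 0 genes were called between the genotypes by the edgeR quasi-likelihood test (943 at an unadjusted p under 0.05) and 110 with rosiglitazone, all of them among the 1084, and same-numbered iWAT libraries had a correlation of −0.0605.

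Genes of protein synthesis and respiration were among the 653 that fell in ob/ob-Veh. Ribosomal protein genes took 6.42% and 5.71% of member UMIs in ob/ob-Veh, 26.0% in WT-Veh replicate 2 and 22.8% and 28.7% in ob/ob-Rosi, but also only 11.3% in WT-Veh replicate 1. Of 81 tested 79 fell in ob/ob-Veh (median −2.70, against 0.08 over all genes) and 80 rose with rosiglitazone (median 2.64, against −0.06). With the library of 9 members these counts were 21 and 66, where 8.01% and 17.2% of all genes were called in either direction. Rps7, a small-subunit protein (chr12:28630854-28635953), was 378 and 303 CPM in ob/ob-Veh, 3836 CPM in WT-Veh replicate 2, 1097 CPM in replicate 1, and 2671 and 3160 CPM in ob/ob-Rosi. It fell by 4.06 ± 0.46, against 1 WT-Veh library, and rose by 3.61 ± 0.42 (adjusted p = 9.8e-15). Both calls held with the added library, at −3.28 (adjusted p = 0.0196) and 3.56 (adjusted p = 0.0094). Among translation factors 14 of 29 fell in ob/ob-Veh (all genes: 14.7%) and 15 rose with rosiglitazone (16.7%), 1 falling, or 4 and 6 of 28 with the added library. The latter is 21.4%, near the 17.2% of all genes called.

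Nuclear-encoded subunits of oxidative phosphorylation moved likewise, 0 higher and 31 lower of 48 in ob/ob-Veh (median −1.65, beside 14.7% of all genes lower) and 36 higher and 0 lower with rosiglitazone (median 1.79, beside 16.7% higher). Cox5b, a subunit of cytochrome c oxidase, was 51.5 and 48.8 CPM in ob/ob-Veh, 365 CPM in WT-Veh replicate 2, 49.9 CPM in replicate 1, and 413 and 408 CPM in ob/ob-Rosi. It fell by 3.41 ± 0.53 and rose by 3.52 ± 0.49. With the added library 11 of 46 fell and 30 rose, Cox5b among both, where 8.01% and 17.2% of all genes were called in either direction.

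Mitochondrially encoded genes ran the opposite way. Their sum was 9.39% and 9.75% of member UMIs in ob/ob-Veh, 2.39% in WT-Veh replicate 2, 11.8% in WT-Veh replicate 1, and 3.08% and 2.00% in ob/ob-Rosi. Of 13 tested 8 rose in ob/ob-Veh (6.02% of all genes) and 12 fell with rosiglitazone (7.78%). With WT-Veh replicate 1 in the fit 0 of 12 were called in either contrast. The genotype change of mt-Nd3 went from 2.15 to 0.75, whereas the rosiglitazone change of mt-Nd2, which compares groups without that library, was −1.86 and then −1.91, with its adjusted p at 0.081. In all other kept cells the ribosomal sum was likewise lowest in ob/ob-Veh, being 7.99% and 8.48% in ob/ob-Veh, 16.8% in WT-Veh replicate 2, 15.8% in WT-Veh replicate 1, and 13.9% and 18.1% in ob/ob-Rosi. The iWAT ob/ob-Veh members were also the shallowest of those fitted (above), and the part of depth and RNA quality in these lists was not tested.

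**Figure D3:**
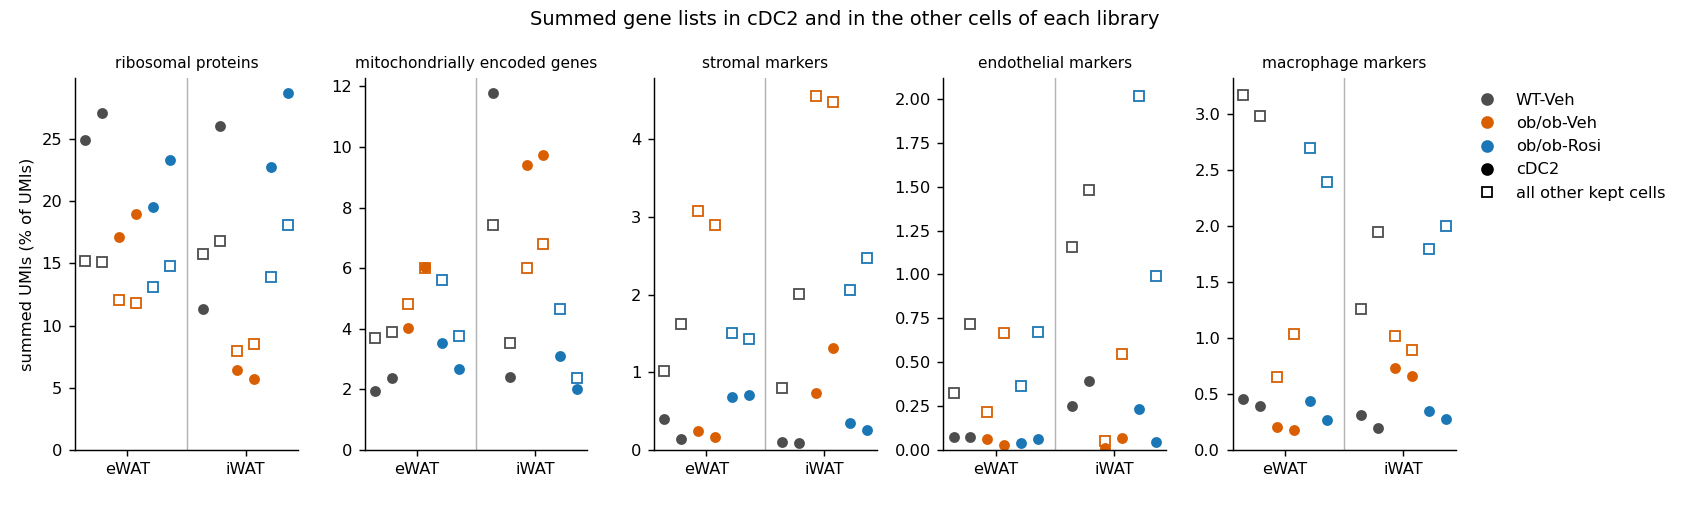
Summed UMIs (% of all UMIs) of ribosomal protein genes, mitochondrially encoded genes, and stromal, endothelial and macrophage markers in each library, filled symbols for cDC2 and open squares for all other kept cells. In iWAT the ribosomal share of cDC2 is 6.42% and 5.71% in ob/ob-Veh against 22.8% and 28.7% in ob/ob-Rosi, and iWAT WT-Veh replicate 1, with 9 members, is at 11.3%.

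In iWAT ob/ob-Veh cDC2 5 of 19 cytokine and NF-κB genes fell, Il1b among them, and of 16 chemokines 5 rose and 2 fell, where 6.02% of all genes rose and 14.7% fell. Of 14 chemokines tested with the added library 1 rose and 1 fell. Il1b (chr2:129364570-129371139) was 275 and 351 CPM in ob/ob-Veh, 2480 CPM in WT-Veh replicate 2, 299 CPM in replicate 1, and 1552 and 1317 CPM in ob/ob-Rosi. It fell by 3.56 ± 0.45 (adjusted p = 7.8e-13) and rose by 2.71 ± 0.40 with rosiglitazone (adjusted p = 1.3e-09). The value of WT-Veh replicate 1 lay within the range of ob/ob-Veh, and with it the fall was 2.67 (adjusted p = 0.043). Bcl2a1b, a survival gene of the Bcl2 family, was 17.2 and 87.8 CPM in ob/ob-Veh, 350 CPM in WT-Veh replicate 2, 99.7 CPM in replicate 1, and 491 and 299 CPM in ob/ob-Rosi, and fell by 3.34 ± 0.54 and rose by 3.44 ± 0.49. Its relative Bcl2a1d was 25.8 and 97.6 CPM in ob/ob-Veh, 328 CPM in WT-Veh replicate 2, 199 CPM in replicate 1, and 324 and 289 CPM in ob/ob-Rosi. Near-identical copies of this family share reads, so their levels are uncertain one by one. Of 19 cytokine and NF-κB genes tested 5 fell in ob/ob-Veh and 5 rose with rosiglitazone, where 14.7% of all genes fell and 16.7% rose, or 3 and 3 of 16 with the added library.

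Chemokines did not move as one. Ccl17 was 0 and 9.76 CPM in ob/ob-Veh, 21.7 CPM in WT-Veh replicate 2, 548 CPM in replicate 1, and 193 and 263 CPM in ob/ob-Rosi, and rose by 5.91 ± 0.75 with rosiglitazone (adjusted p = 1.2e-12), a call that held with the added library. Here it rose where in eWAT it fell. Ccl8 was 275 and 586 CPM in ob/ob-Veh, 43.3 CPM in WT-Veh replicate 2 and 49.9 CPM in replicate 1, and rose by 2.71 ± 0.55, with 334 and 41.3 CPM in ob/ob-Rosi. Ccl5, a chemokine of activated lymphocytes and mature dendritic cells, was 0 and 9.76 CPM in ob/ob-Veh against 164 CPM in WT-Veh replicate 2 and 99.7 CPM in replicate 1, and fell by 5.48 ± 0.87. With rosiglitazone 4 of 16 rose and 0 fell (all genes: 16.7% and 7.78%), or 1 and 0 of 14 with the added library, a share of 7.14% beside 17.2% of all genes. Among those 4, Ccl2 and Cxcl9 rested on 1 library: Ccl2 was 1004 CPM in ob/ob-Rosi replicate 1 and 46.5 CPM in replicate 2, beside 223 and 127 CPM in ob/ob-Veh and 150 and 34.1 CPM in WT-Veh, and its change of 2.02 turned to −1.27 without replicate 1. Cxcl9 was 282 and 5.16 CPM in ob/ob-Rosi and 0 to 9.76 CPM elsewhere.

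Of the 13 cDC2 markers tested in iWAT, 1 rose in ob/ob-Veh (Itgam), and with rosiglitazone 1 rose (Ccl17) and 3 fell (Clec10a, Tnip3 and Itgam), where 6.02% of all genes rose in the first contrast and 16.7% rose and 7.78% fell in the second. Only Itgam and then Ccl17 were called with the added library, of 12. Outside this list, Il1rl1, the receptor for IL-33 (chr1:40429570-40465415), was 404 and 283 CPM in ob/ob-Veh, 62.7 and 62.0 CPM in ob/ob-Rosi, 61.9 CPM in WT-Veh replicate 2 and 99.7 CPM in replicate 1. It fell by 1.94 ± 0.43 with rosiglitazone (adjusted p = 0.00013), also with the added library. Clec10a was 1366 and 1854 CPM in ob/ob-Veh, 361 and 377 CPM in ob/ob-Rosi, 529 CPM in WT-Veh replicate 2 and 1496 CPM in replicate 1, and fell by 1.60 ± 0.37 (adjusted p = 0.00024). With the added library this change had an adjusted p of 0.0711. Tnip3 was 1400 and 1835 CPM in ob/ob-Veh, 554 and 460 CPM in ob/ob-Rosi, 774 CPM in WT-Veh replicate 2 and 847 CPM in replicate 1, and fell by 1.16 ± 0.37 (adjusted p = 0.01), and it lost its call with the added library (adjusted p = 0.169).

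Itgam, the integrin CD11b, was 619 and 595 CPM in ob/ob-Veh, 136 CPM in WT-Veh replicate 2, 99.7 CPM in replicate 1, and 272 and 129 CPM in ob/ob-Rosi. It rose by 1.58 ± 0.48 (adjusted p = 0.0088) and fell by 1.1 ± 0.38 (adjusted p = 0.021), and the rise held with the added library. Ccr2, the receptor by which monocytes and cDC2 precursors enter tissue, was 2045 and 1210 CPM in ob/ob-Veh, 502 and 423 CPM in ob/ob-Rosi, 526 CPM in WT-Veh replicate 2 and 798 CPM in replicate 1, and fell by 1.31 (adjusted p = 0.0031). Spi1, the myeloid factor PU.1, was 189 and 19.5 CPM in ob/ob-Veh, 300.3 CPM in WT-Veh replicate 2, 299 CPM in replicate 1, and 272 and 320.1 CPM in ob/ob-Rosi, and fell by 2.03 ± 0.48 and rose by 1.96 ± 0.44. Of 21 dendritic cell development genes 3 rose and 3 fell, and then 2 and 2, where 6.02% of all genes rose and 14.7% fell, and then 16.7% and 7.78%. In the fit with the added library 0 of 19 were called in the first contrast and 1 in the second.

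Of 17 class II pathway genes in iWAT, 1 rose and 4 fell in ob/ob-Veh and 4 rose and 1 fell with rosiglitazone, beside 6.02% and 14.7% and then 16.7% and 7.78% of all genes. The fit with the added library called 1 of 16 higher in the first and 0 in the second. Members were chosen on at least 5 raw UMIs of H2-Ab1, a gene of the same pathway, a limit stricter in shallow cells. That limit alone kept out 27 and 10 cells in iWAT ob/ob-Veh, 4 and 3 in WT-Veh, and 10 and 3 in ob/ob-Rosi. Its part in the changes of these genes was not tested. Cd74 was 13453 and 18307 CPM in ob/ob-Veh, 39210 CPM in WT-Veh replicate 2, 22383 CPM in replicate 1, and 17242 and 36760 CPM in ob/ob-Rosi. It fell by 1.88 ± 0.50 in ob/ob-Veh (adjusted p = 0.0018), but not with the added library (−1.29, adjusted p = 0.396), and the ob/ob-Rosi and ob/ob-Veh ranges overlapped. H2-DMa, the partner of H2-DMb in loading class II peptides, was 636 and 449 CPM in ob/ob-Veh, 1127 CPM in WT-Veh replicate 2, 499 CPM in replicate 1, and 716 and 836 CPM in ob/ob-Rosi, with changes of −1.62 and 1.03. H2-DMb2 was 94.5 and 137 CPM in ob/ob-Veh, 170 CPM in WT-Veh replicate 2, 150 CPM in replicate 1, and 99.3 and 82.6 CPM in ob/ob-Rosi, and was not called. The gene that rose in ob/ob-Veh was Lgmn, an endosomal protease, at 430 and 517 CPM against 92.9 CPM in WT-Veh replicate 2 and 99.7 CPM in replicate 1.

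Of 15 class I genes 0 rose and 2 fell in ob/ob-Veh (all genes: 6.02% and 14.7%), and 1 rose and 4 fell with rosiglitazone (16.7% and 7.78%), or 1 lower and then 1 and 1 of 12 with the added library. The heavy chain H2-K1 was 2886 and 3064 CPM in ob/ob-Veh, 695 and 661 CPM in ob/ob-Rosi, 923 CPM in WT-Veh replicate 2 and 1346 CPM in replicate 1, and fell by 1.62 ± 0.37 with rosiglitazone (adjusted p = 0.00019). B2m, its light chain, was 2002 and 1883 CPM in ob/ob-Veh, 732 and 532 CPM in ob/ob-Rosi, 755 CPM in WT-Veh replicate 2 and 1047 CPM in replicate 1, and fell by 1.11. Both calls were lost with the added library, for H2-K1 at an adjusted p of 0.0775. The immunoproteasome subunit Psmb8 was 85.9 and 39.0 CPM in ob/ob-Veh, 347 CPM in WT-Veh replicate 2, 99.7 CPM in replicate 1, and 355 and 284 CPM in ob/ob-Rosi. It fell by 3.00 ± 0.51 and rose by 2.82 ± 0.47, and both held.

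Of 23 lipid genes tested in iWAT 8 fell in ob/ob-Veh (14.7% of all genes), and with rosiglitazone 6 rose (16.7%) and 2 fell (7.78%). These became 4 lower of 15, and then 1 higher and 0 lower, with the added library, where 17.2% of all genes were called in the second contrast. Fabp5 was 0 and 19.5 CPM in ob/ob-Veh, 130 CPM in WT-Veh replicate 2, 150 CPM in replicate 1, and 172 and 31.0 CPM in ob/ob-Rosi, and fell by 4.27 ± 0.77 and rose by 3.84 ± 0.76. Both calls held with the added library. Fabp4 was 68.7 and 576 CPM in ob/ob-Veh, 2981 CPM in WT-Veh replicate 2, 2243 CPM in replicate 1, and 2075 and 367 CPM in ob/ob-Rosi, and fell by 3.82 ± 0.45 in ob/ob-Veh. Its rise of 2.43 with rosiglitazone rested on overlapping groups. Fabp4 and Gpihbp1, the capillary anchor of lipoprotein lipase, are abundant in endothelial cells, and the summed endothelial markers of members were 103 and 644 CPM in ob/ob-Veh, 3941 CPM in WT-Veh replicate 2, 2492 CPM in replicate 1, and 2305 and 429 CPM in ob/ob-Rosi. In all other cells the sum was also lowest in ob/ob-Veh, at 510 and 5458 CPM, with 14827 CPM in WT-Veh replicate 2, 11589 CPM in replicate 1, and 20174 and 9900 CPM in ob/ob-Rosi, but there ob/ob-Rosi replicate 1 was above WT-Veh. Of 6 endothelial markers tested in members 6 fell in ob/ob-Veh (all genes: 14.7%) and 3 rose with rosiglitazone (16.7%). With the added library these were 3 and 1 of 3, where 8.01% and 17.2% of all genes were called in either direction. The part of endothelial RNA was not tested.

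Of 14 genes of glycolysis and hypoxia 1 rose and 5 fell in ob/ob-Veh, and 5 rose and 1 fell with rosiglitazone, beside 6.02% and 14.7% and then 16.7% and 7.78% of all genes. Including the added library, 2 of 13 fell in the first and 2 rose and 1 fell in the second, against 8.01% and 17.2% of all genes called in either direction. Gapdh was 137 and 58.6 CPM in ob/ob-Veh, 777 CPM in WT-Veh replicate 2, 0 CPM in replicate 1, and 821 and 749 CPM in ob/ob-Rosi, and fell by 3.52 ± 0.48 and rose by 3.48 ± 0.44. Hk2, the first kinase of the pathway, was the exception at 301 and 107 CPM in ob/ob-Veh against 49.5 CPM in WT-Veh replicate 2, 150 CPM in replicate 1, and 47.0 and 31.0 CPM in ob/ob-Rosi, and rose by 1.49 ± 0.55 and fell by 1.89 ± 0.50.

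Cell cycle genes rose in iWAT with rosiglitazone, 10 of 14 tested beside 16.7% of all genes, and 5 fell in ob/ob-Veh against WT-Veh, beside 14.7%. With the added library these counts were 5 and 0 of 9, where 17.2% and 8.01% of all genes were called in either direction, so that no fall of a cell cycle gene, Stmn1 and Hmgb2 included, was called with it. Ube2c, a ubiquitin-conjugating enzyme of mitotic exit, was 0 CPM in both ob/ob-Veh libraries, 157 and 103 CPM in ob/ob-Rosi, 12.4 CPM in WT-Veh replicate 2 and 0 CPM in replicate 1, at least 9.47-fold higher in ob/ob-Rosi than in ob/ob-Veh. Hmgb2, a chromatin protein of dividing cells, was 68.7 and 78.1 CPM in ob/ob-Veh, 570 and 320 CPM in ob/ob-Rosi, 164 CPM in WT-Veh replicate 2 and 49.9 CPM in replicate 1, and rose by 3.09 ± 0.46 (adjusted p = 1.2e-09). Stmn1, a microtubule regulator, was 25.8 and 48.8 CPM in ob/ob-Veh, 293 and 258 CPM in ob/ob-Rosi, 83.6 CPM in WT-Veh replicate 2 and 0 CPM in replicate 1, and rose by 3.39 ± 0.52. The proliferation marker Mki67 was 17.2 and 58.6 CPM in ob/ob-Veh and 183 and 41.3 CPM in ob/ob-Rosi, and these ranges overlapped.

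RNA of macrophage and stromal marker genes was higher in iWAT ob/ob-Veh members. C1qa was 885 and 800 CPM in ob/ob-Veh, 68.1 CPM in WT-Veh replicate 2, 249 CPM in replicate 1, and 230 and 253 CPM in ob/ob-Rosi, and rose by 3.05 ± 0.54 (adjusted p = 6.3e-07). F13a1, the coagulation factor XIII A chain of resident macrophages, was 661 and 820 CPM in ob/ob-Veh, 124 CPM in WT-Veh replicate 2, 0 CPM in replicate 1, and 105 and 92.9 CPM in ob/ob-Rosi, and rose by 2.00 ± 0.49 and fell by 2.38 ± 0.41. Of 13 macrophage markers 9 rose in ob/ob-Veh, beside 6.02% of all genes, and 1 rose and 6 fell with rosiglitazone, beside 16.7% and 7.78%. With the added library 5 of 12 rose and then 4 fell, where 8.01% and 17.2% of all genes were called in either direction. Their sum was 7311 and 6577 CPM in ob/ob-Veh, 1932 CPM in WT-Veh replicate 2, 3091 CPM in replicate 1, and 3455 and 2721 CPM in ob/ob-Rosi. In all other cells it ran the other way between ob/ob-Veh (10185 and 8916 CPM) and WT-Veh (19437 CPM in replicate 2, 12528 CPM in replicate 1) or ob/ob-Rosi (17944 and 20008 CPM). The monocyte marker sum was 5232 and 5562 CPM in ob/ob-Veh members, 2167 CPM in WT-Veh replicate 2, 1495 CPM in replicate 1, and 2054 and 1441 CPM in ob/ob-Rosi, and in all other cells 6863 and 6334 CPM in ob/ob-Veh against 1057 to 1942 CPM elsewhere. Of 9 monocyte markers tested 2 rose and 2 fell in ob/ob-Veh (all genes: 6.02% and 14.7%), and 2 fell with rosiglitazone (7.78%), or 0 higher and 1 lower of 5 and then 0 with the added library. The immediate early and heat shock sum of members was 23719 and 25217 CPM in ob/ob-Veh, 16093 CPM in WT-Veh replicate 2, 6630 CPM in replicate 1, and 13965 and 15878 CPM in ob/ob-Rosi. The part of these in the iWAT results was not tested. Nor was that of the raw-UMI limit on Lyve1, Cd163 and Trem2, which is less strict in the shallow ob/ob-Veh members. Col1a1, the main fibrillar collagen, was 893 and 751 CPM in ob/ob-Veh, 15.5 CPM in WT-Veh replicate 2, 0 CPM in replicate 1, and 141 and 87.8 CPM in ob/ob-Rosi, and rose by 5.11 ± 0.66 (adjusted p = 2.5e-12) and fell by 2.34 ± 0.40 (adjusted p = 2.2e-07).

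The stromal sum was 7302 and 13087 CPM in ob/ob-Veh members, 923 CPM in WT-Veh replicate 2, 997 CPM in replicate 1, and 3413 and 2530 CPM in ob/ob-Rosi. In all other cells it was 45616 and 44841 CPM, 20063 CPM in WT-Veh replicate 2, 7963 CPM in replicate 1, and 20650 and 24671 CPM in ob/ob-Rosi, again highest in ob/ob-Veh. Of 9 stromal markers tested 8 rose in ob/ob-Veh (all genes: 6.02%), with or without the added library, and 7 fell with rosiglitazone (7.78%), or 4 with it. Among the largest rises in ob/ob-Veh were the secreted protease Prss23 at 103 and 185 CPM against 0 CPM in both WT-Veh libraries (at least 15.2-fold higher than replicate 2) and the matrix metalloprotease Mmp2 at 68.7 and 176 CPM against 0 CPM in WT-Veh replicate 2 (at least 12.8-fold higher), where replicate 1 held 99.7 CPM. Among the largest falls was the endothelial junction gene Cldn5, at 0 CPM in both ob/ob-Veh libraries and WT-Veh replicate 1 against 207 CPM in WT-Veh replicate 2 (at least 15.1-fold lower). How far these levels come from RNA of other cells was not tested.

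Between ob/ob-Rosi and WT-Veh, 38 of 4436 genes were called in iWAT (0.857%), 23 higher (0.518%) and 15 lower (0.338%). With the added library 0 were called by the edgeR quasi-likelihood test, with 116 at an unadjusted p under 0.05, and DESeq2 on the first set of libraries called 1. Among the 38 were 5 chemokines that were higher in ob/ob-Rosi (Ccl2, Ccl17, Cxcl9, Ccl24 and Ccl8), 2 cell cycle genes (Ube2c and Top2a) and 3 stromal markers, and, lower, 4 endothelial markers. Tested were 16 chemokines, 14 cell cycle genes, 9 stromal markers and 6 endothelial markers, and the chemokine Ccl5 was called lower. The chemokine calls rest on few libraries. Ccl2 (46.5 CPM) and Cxcl9 (5.16 CPM) were low in ob/ob-Rosi replicate 2, Ccl8 there (41.3 CPM) lay below WT-Veh replicate 2 (43.3 CPM), and Ccl24 was 199 and 15.5 CPM in ob/ob-Rosi, 9.29 CPM in WT-Veh replicate 2 and 99.7 CPM in replicate 1. Ccl17 in WT-Veh replicate 1 (548 CPM) was above both ob/ob-Rosi libraries. Of 81 ribosomal proteins and 48 respiratory chain genes 0 were called.

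**Figure D4:**
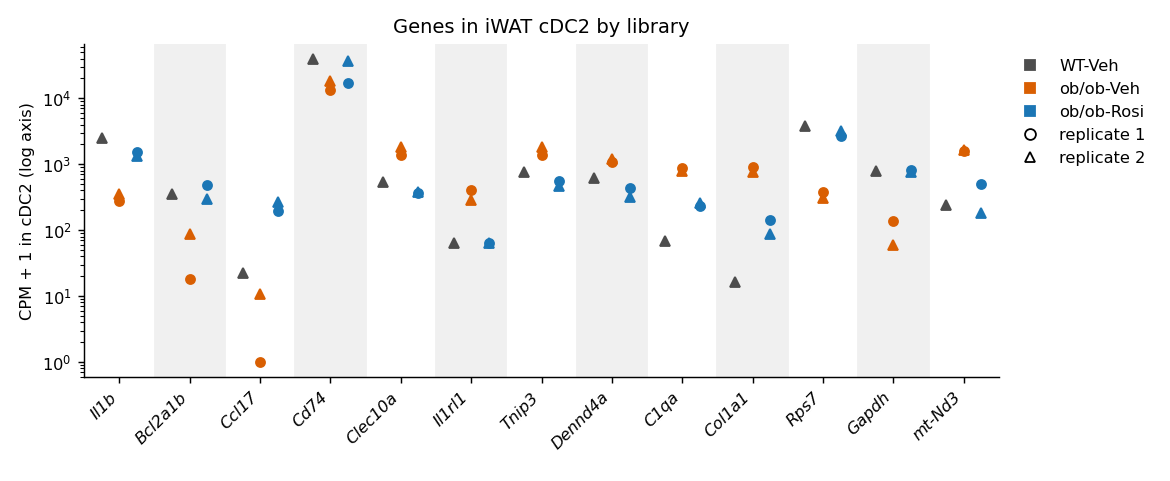
Levels of 13 genes in iWAT cDC2 (CPM + 1, log axis) in the 5 libraries of the fit, circles for replicate 1 and triangles for replicate 2, with WT-Veh replicate 2 as the only lean library. Il1b, Bcl2a1b, Rps7 and Gapdh are lowest in both ob/ob-Veh libraries, and Clec10a, Il1rl1, C1qa and Col1a1 highest there.

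Changes in cDC2 were compared with those in MHC class II macrophages of the same libraries, keeping the library as a block, to show which differed between the populations. In eWAT, 260 of 11178 genes differed in the genotype change (2.33%), 202 with a higher change in cDC2 (1.81%) and 58 with a lower one (0.519%). There 481 differed in the rosiglitazone change (4.3%), 171 higher (1.53%) and 310 lower (2.77%). In iWAT the counts were 45 of 9881 (0.455%), 28 higher (0.283%) and 17 lower (0.172%), and 40 (0.405%), 21 higher (0.213%) and 19 lower (0.192%). Normalisation over both populations put the median difference of all eWAT genes at 0.48 and −0.28, so moderate differences there are relative to that shift.

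Of the 5 strongest genotype differences in eWAT, 3 (Mgl2, Plbd1 and Ifitm6) had a lower change in cDC2 than in macrophages and 2 (Adam8 and Ube2c) a higher one. Mgl2 was 1271 and 786 CPM in WT-Veh cDC2 and 803 and 811 CPM in ob/ob-Veh cDC2, whereas in macrophages it was 81.0 and 79.3 CPM and then 627 and 805 CPM. The change in cDC2 was lower by 3.16 ± 0.29 (adjusted p = 5e-24). Plbd1, a lysosomal phospholipase-like gene of myeloid cells, was 651 and 618 CPM and 615 and 550 CPM in cDC2, against 10.6 and 12.7 CPM and 139 and 132 CPM in macrophages. The reverse held for Adam8, a leukocyte metalloprotease, at 63.0 and 70.6 CPM in WT-Veh and 127 and 134 CPM in ob/ob-Veh cDC2, against 255 and 281 CPM and 49.4 and 51.4 CPM in macrophages (difference 3.66 ± 0.42). Ube2c was 0 CPM in both WT-Veh and 55.3 and 63.5 CPM in ob/ob-Veh cDC2, against 76.8 and 39.1 CPM and 12.4 and 7.82 CPM in macrophages (adjusted p = 4.8e-13).

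Among the 5 strongest rosiglitazone differences in eWAT, Adam8, Cd9 and Itgax, the integrin CD11c, had a lower change in cDC2 than in macrophages. Dcn (2.63) and Adamts5 (4.48) had a higher one. Levels of Adam8 and Itgax were lower with rosiglitazone in cDC2 and higher in macrophages, but Itgax was not itself called in cDC2. Itgax was 136 and 154 CPM in ob/ob-Veh and 44.5 and 76.2 CPM in ob/ob-Rosi cDC2, against 21.5 and 26.6 CPM and 132 and 85.9 CPM in macrophages (difference −3.73). Lsmem1 also differed from macrophages, in both contrasts (adjusted p = 0.00127 and 0.000885), as did Ccl8 (differences of −4.35 and 4.60). Fabp5 differed as well (1.41, adjusted p = 0.0215, and −1.36, adjusted p = 0.0106). For the marker H2-DMb2 the genotype change was lower in cDC2 than in macrophages (−2.59, adjusted p = 0.0029). Its rosiglitazone change was not separated from that in macrophages (1.48, adjusted p = 0.121). The genotype changes of Il6, Fcrls, Cxcl10, Cd209d, Neat1, Gpnmb, Cd63 and Apoe were not separated from those in macrophages, with adjusted p from 0.229 for Cxcl10 to 0.996 for Cd209d.

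Of the 5 strongest differences in the rosiglitazone change in iWAT, 3 were of genes that fell in cDC2 and 2, Tbc1d4 (3.95) and Ly6e (1.89), had a higher change in cDC2 than in macrophages. DESeq2 called 0 differences in this contrast, with 251 at an unadjusted p under 0.05. Tnip3 was 157 and 25.8 CPM in ob/ob-Veh and 136 and 98.4 CPM in ob/ob-Rosi macrophages, and its change in cDC2 was lower by 2.03 ± 0.32 (adjusted p = 3.8e-06). Il1rl1 was 25.9 and 22.9 CPM and 29.7 and 37.6 CPM in macrophages (difference −2.63 ± 0.46). Dennd4a, a regulator of Rab GTPases, was 1074 and 1200 CPM in ob/ob-Veh and 439 and 320 CPM in ob/ob-Rosi cDC2, with 610 CPM in WT-Veh replicate 2 and 1446 CPM in replicate 1, against 57.7 and 50.8 CPM and 109 and 61.6 CPM in macrophages (difference −1.93). With the added library 4 genes in all differed in this contrast and 19 in the genotype contrast. Strongest in the iWAT genotype contrast, with 1 WT-Veh library, were lower changes in cDC2 for Il2rg (−3.37), Plac8 (−3.72), Vps37b (−2.67) and Plbd1 (−2.00). Rnase4 (2.83) had a higher change in cDC2 than in macrophages.

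**Figure D5:**
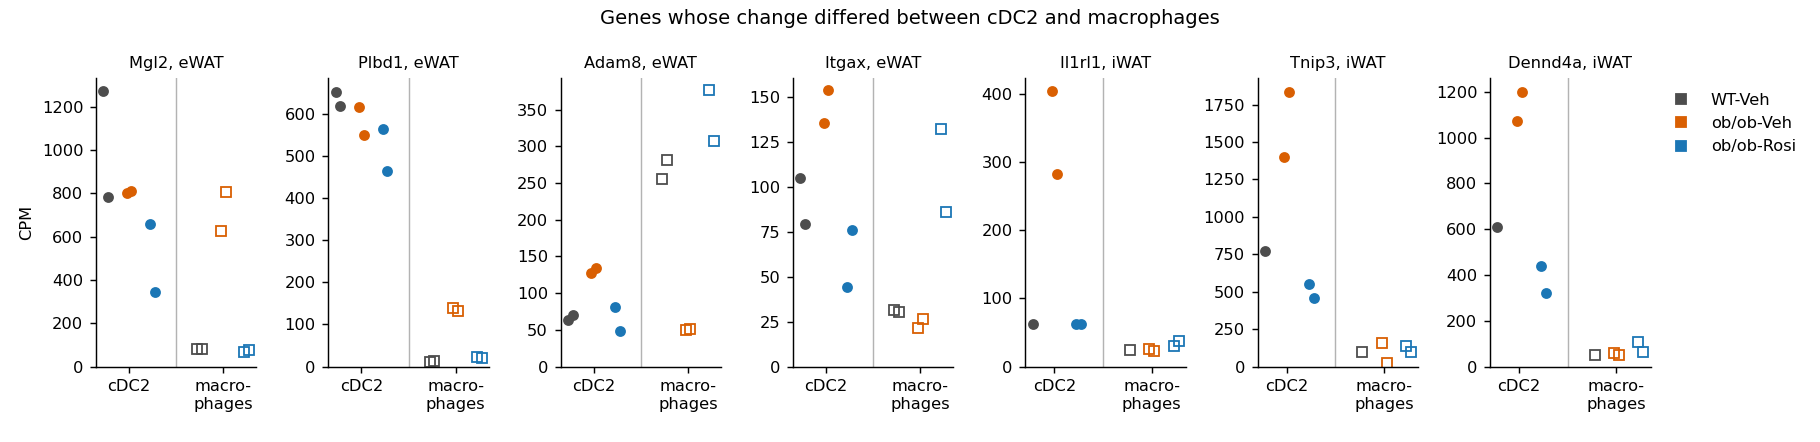
Levels (CPM) of Mgl2, Plbd1, Adam8 and Itgax in eWAT and of Il1rl1, Tnip3 and Dennd4a in iWAT, filled symbols for cDC2 and open symbols for MHC class II macrophages of the same libraries. The iWAT panels leave out WT-Veh replicate 1. Its cDC2 level lay above both ob/ob-Veh libraries for Dennd4a and below both for Il1rl1 and Tnip3. Macrophage Mgl2 is 81.0 and 79.3 CPM in WT-Veh and 627 and 805 CPM in ob/ob-Veh, while cDC2 Mgl2 is 786 to 1271 CPM in these groups.

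The depots differed in their responses, by the test of the difference itself in all libraries with at least 20 members. The ob/ob-Veh against WT-Veh change differed between iWAT and eWAT in 190 of 4794 genes (3.96%), 42 with a higher change in iWAT (0.876%) and 148 with a lower one (3.09%). The rosiglitazone change differed in 271 (5.65%), 211 higher (4.4%) and 60 lower (1.25%). With the library of 9 members added these counts were 41 and 62. Il6, which rose in eWAT ob/ob-Veh, had a change lower by 4.72 in iWAT (adjusted p = 0.01), and Il1b a change lower by 2.64 (adjusted p = 0.0048). The deposited iWAT matrices held no barcode above the upper limits on UMIs and mitochondrial share, whereas the eWAT matrices did, and the same limits were applied to both here.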

How the data were processed

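Cells of the stromal vascular fraction were profiled with 10x 3′ v3.1 chemistry. Per the labels and the study's methods, the authors demultiplexed with bcl2fastq 2.19.1.403 and made the deposited UMI counts per gene and barcode with Cell Ranger 3.0.2 on mm10, and processed all samples in 1 batch. The counts were used as deposited. Members were chosen by the rule in the report, and their UMIs were summed per library. Libraries with at least 20 members entered edgeR 4.0.16 (R 4.3.3) with TMM normalisation, filterByExpr, glmQLFit and glmQLFTest, 1 fit per depot with 3 residual degrees of freedom in eWAT and 2 in iWAT. The 13 genes of the rule were left out of the tests. Calls needed 1.1-fold and p no higher than 0.05 after Benjamini-Hochberg adjustment. Depot and macrophage differences were interaction terms of the same kind. Shares were compared by exact permutation tests. Cells are not replicates, so a group has 2 values, and nothing in the labels ties the numbered mice of different groups to each other.

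The genes named are the 8 largest non-overlapping called changes per direction at 30 CPM or more, called members of gene lists (at most 4 per direction), the cell type markers, drug targets, and the 5 strongest differences between depots and from macrophages. Il1b in eWAT, Mki67 and the genes of ob/ob-Rosi against WT-Veh were chosen after their values were seen. The members and lists were chosen with earlier results of these data known. Doublets were scored with scrublet in scanpy 1.11.5. Gene positions are those of GENCODE on mm10. The edgeR script was tested on simulated counts. Alternatives were DESeq2 1.42.0, other normalisations and filters, other limits of the rule, a replicate block and leaving out each library.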

Additional observations from a re-analysis of the deposited data

Results flagged for a closer look

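The results here were singled out because the same contrast had a different size or direction in the 2 depots, by the interaction test of edgeR (change in iWAT minus change in eWAT). They count 190 genes for ob/ob-Veh against WT-Veh and 271 for rosiglitazone against vehicle in ob/ob, and both contrasts use the ob/ob-Veh libraries. The iWAT WT-Veh arm is 1 library.

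For the genotype contrast, Rps7 had a difference of −3.30 ± 0.47 (SE, adjusted p = 0.0019): it was 2952 and 3099 CPM in WT-Veh and 1891 and 2133 CPM in ob/ob-Veh in eWAT, against 3836 CPM and 378 and 303 CPM in iWAT. Ccl8 had a difference of 8.20 ± 1.29, falling in eWAT (158 and 70.6 CPM to 1.09 and 4.89 CPM) and rising in iWAT (43.3 CPM to 275 and 586 CPM). For C1qa the difference was 3.86 ± 0.62, with 284 and 230 CPM in WT-Veh and 183 and 142 CPM in ob/ob-Veh in eWAT. Tmsb4x, the actin-binding thymosin β4, differed by −2.72 ± 0.44, at 18983 to 22254 CPM in the 4 vehicle libraries of eWAT, against 23594 CPM in WT-Veh replicate 2 and 6031 and 3933 CPM in ob/ob-Veh of iWAT. The left-out iWAT WT-Veh replicate 1 held 6680 CPM of it. Apoe differed by 3.41 ± 0.55 (adjusted p = 0.0026), at 1050 CPM in WT-Veh replicate 2 and 2655 and 1932 CPM in ob/ob-Veh of iWAT.

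For the rosiglitazone contrast, 4 of the 5 strongest differences were ribosomal proteins: Rps18 (3.08), Rpl34 (3.12), Rps7 (3.11) and Rps25 (2.92), all at an adjusted p of 0.00042. Rps18 was 2102 and 1769 CPM in ob/ob-Veh and 2498 and 1912 CPM in ob/ob-Rosi in eWAT, against 421 and 400.1 CPM and 3188 and 2742 CPM in iWAT. The fifth was Ccl17, with a difference of 11.79 ± 1.71 (adjusted p = 0.00042): it went from 749 and 53.8 CPM to 14.8 and 0 CPM in eWAT and from 0 and 9.76 CPM to 193 and 263 CPM in iWAT.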

How the results depend on the processing

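Counts of called genes depended on the settings. Directions were compared for the named genes only, many of them named because they were called here, so a kept sign says little. Among these reruns 802 lost the call with the same sign, 194 of them with the replicate block, and 10 gained one. In the fit of all libraries at once, iWAT WT-Veh replicate 1 stayed out, being under the minimum of 20 members. Without members that carried 10 or more C1q UMIs, and with TMM computed without ribosomal and mitochondrial genes, every count run stayed within 1.5 times. The filter on genes at least as high in members as in other cells takes its mean over all groups, so it can admit a gene through the group where it is high, and says nothing of RNA from other cells. In eWAT, ob/ob-Veh against WT-Veh (11) gave 7 with DESeq2 (Apoe and Neat1 among them, with no adjusted p given for the others of the 11), 21 with library size alone, 82 with no filter on low counts, 20 without doublets, 27 with all libraries in one fit, 5 among genes at least as high in members as in other cells, and 12 to 41 without 1 library. The rosiglitazone contrast (37) gave 151 with no filter, 18 without doublets, 63 in one fit, 6 among those genes and 4 to 120 without 1 library, 4 without ob/ob-Rosi replicate 2 and 120 without WT-Veh replicate 2. ob/ob-Rosi against WT-Veh (0) gave 1 with DESeq2, 8 with no filter and 0 to 5 without 1 library. In iWAT, the genotype contrast (920) gave 245 with DESeq2, 399 with at least 3 Flt3 and Cd209a UMIs (where ob/ob-Rosi replicate 2, with 12 such cells, also left the fit), 546 among genes at least as high in members, 245 with the WT-Veh library of 9 members, and 628 to 851 without 1 library. The rosiglitazone contrast (1084) gave 311, 298, 694, 526 and 610 to 979 in that order. ob/ob-Rosi against WT-Veh (38) gave 1 with DESeq2, 6 with library size alone, 11 with at least 3 UMIs, 11 without doublets, 0 in one fit (207 at an unadjusted p under 0.05), 6 among those genes, 0 with the library of 9 members and 16 to 41 without 1 library. Leaving out iWAT WT-Veh replicate 2 leaves no lean arm, so that was not run.

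Differences between depots for the genotype (190) gave 118 with DESeq2, 341 with no filter, 41 with the library of 9 members and 18 to 196 without 1 library (18 without eWAT WT-Veh replicate 1), and for rosiglitazone (271) 62 with that library and 133 to 268. Differences from macrophages in eWAT gave 52 with DESeq2, 118 among genes at least as high in members and 82 to 243 without 1 library for the genotype (260), and 135, 172 and 143 to 535 for rosiglitazone (481). In iWAT they gave 0 with DESeq2 (222 at an unadjusted p under 0.05), 14 among those genes, 19 with the library of 9 members and 23 to 85 for the genotype (45), and 0 with DESeq2 (251), 4 with that library and 9 to 65 for rosiglitazone (40). Where 1 library remained in a group, it was assumed to vary like the others. The cause of these moves was not tested.

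A replicate block, in which mice of the same number are paired, gave 92, 117 and 3 in eWAT, 0 (943 at an unadjusted p under 0.05), 110 and 0 (112) in iWAT, and 287 for the depot difference of the genotype. The labels tie no numbers together and there are only 2, so the block was not used. Same-numbered eWAT libraries deviated together with correlations of 0.295, 0.172 and 0.116 across genes, and those of iWAT with −0.0605.

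The log2 ratio of cDC2 shares kept its sign for ob/ob-Veh against both other groups in each depot: without 1 library it was 1.433 to 1.999 and −1.601 to −1.167 in eWAT, and 0.5452 to 3.842 and −1.656 to −1.149 in iWAT, the lowest without WT-Veh replicate 1 and the highest without replicate 2. For ob/ob-Rosi against WT-Veh it was 0.0319 to 0.5983 in eWAT and −0.0169 with cells thinned to 2000 UMIs, and in iWAT −0.8354 (without WT-Veh replicate 1) to 2.462, −0.2510 without ob/ob-Rosi replicate 1, −0.1645 among the 3 dendritic cell rules, −0.4099 thinned, −0.3411 with at least 3 UMIs and −0.0711 without C1q-rich members. Where the main fit or the alternative called the gene, single genes turned in sign in 5 cases: Ccl2 in iWAT with rosiglitazone (−7.1305 with at least 3 UMIs, −2.8456 without C1q-rich members and −1.2737 to 2.9675 without 1 library, the lowest without ob/ob-Rosi replicate 1), and, with the library of 9 members, AY036118 (−0.6359) and Naaa (−0.0715). In 15 further cases the sign turned where neither fit called the gene.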

Other observations

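AY036118, annotated as a long intergenic noncoding RNA, differed between replicates of a group more than between groups in eWAT cDC2: 1786 and 132 CPM in WT-Veh, 781 and 24.4 CPM in ob/ob-Veh, and 1312 and 49.0 CPM in ob/ob-Rosi, high in each replicate 1. In iWAT it was 2542 and 3.10 CPM in WT-Veh, 833 and 586 CPM in ob/ob-Veh, and 779 and 36.1 CPM in ob/ob-Rosi. Cells of the mature dendritic cell rule (at least 2 Ccr7 UMIs with Fscn1 and class II) numbered 23 in all 12 libraries, 22 of them in eWAT, too few for a comparison.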
